A study of Mus musculus with 18 samples.

Results

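The comparison described here set 3 libraries of mouse embryonic fibroblasts (MEFs) of genotype Pole4-/- Trp53-/- against 3 of genotype Pole4-/- Trp53+/+, which are 6 of the 18 RNA-seq libraries of the study. The libraries were taken by their genotype labels, and the gene lists below were chosen with earlier results of these data known. Both groups lack Pole4, and they differ in the labelled Trp53 genotype. The study as a whole crossed Pole4+/+ or Pole4-/- with Trp53+/+, Trp53+/- or Trp53-/-, with 3 libraries for each of the 6 genotypes. Per the study's methods, the cells were primary MEFs of the C57BL/6 background, harvested at passage 1 and prepared from midgestation embryos of Pole4+/- Trp53+/- matings after the head, heart and liver were taken out. All cultures were kept in 5% oxygen with 15% fetal bovine serum. Both alleles are germline nulls, so the Trp53-/- cells had lacked TRP53 throughout development, and the sources used here do not say which libraries came from littermates. A p-value here therefore measures the spread between libraries of 1 genotype, whether biological or technical, and that spread was estimated over all 18 libraries with 12 residual degrees of freedom.

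TRP53 is a transcription factor that restrains proliferation after DNA damage or replication stress, largely by inducing the cyclin-dependent kinase inhibitor CDKN1A. POLE4 is a small histone-fold subunit of DNA polymerase epsilon, the leading-strand replicase, and cells without it experience replication stress. Fibroblasts in culture divide their transcription between the machinery of growth, such as ribosome assembly, RNA processing and protein folding, and the products of a differentiated stroma, such as collagens, matrix glycoproteins and secreted factors. The question asked of these libraries was which of those functions, beyond the cell cycle and E2F genes and the annotated TRP53 targets, differed with Trp53 genotype when Pole4 was absent.

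The 6 libraries held between 11316150 and 25497457 expected counts. Ribosomal RNA genes took 24.7 to 30.0% of the counts in the Trp53-/- libraries and 7.11 to 42.5% in the Trp53+/+ libraries. By Y-linked genes, replicate 2 of the Trp53-/- group and replicates 2 and 3 of the Trp53+/+ group were male. Levels are given as counts per 1000000 counts of the library (CPM) after trimmed mean of M-values (TMM) scaling, listed in the order of replicates 1, 2 and 3, and tests are edgeR quasi-likelihood tests with Benjamini-Hochberg adjustment over all 15710 genes tested. A value with ± after a gene is its log2 fold change, Trp53-/- against Trp53+/+, with its standard error. The targeted transcript Trp53 was at 10.03, 12.1 and 11.9 CPM in the Trp53-/- libraries and 64.2, 70.5 and 72.7 CPM in the Trp53+/+ libraries (log2 fold change -2.61 ± 0.12, adjusted p = 1.47e-09), in the direction of the labels in every library. Its target Cdkn1a was at 8.80, 6.07 and 5.17 CPM in the Trp53-/- libraries and 342, 361 and 363 CPM in the Trp53+/+ libraries (-5.72 ± 0.26). Pole4 did not pass the test between the groups (0.14 ± 0.20, adjusted p = 0.598), and its transcript was not at 0 in these Pole4-/- libraries, at 11.2, 11.99 and 11.2 CPM in the Trp53-/- libraries and 11.2, 9.26 and 10.6 CPM in the Trp53+/+ libraries.

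Of the 15710 genes tested, 3427 (21.8%) were called higher and 3272 (20.8%) lower in the Trp53-/- libraries at an adjusted p under 0.05, so that 42.6% of all genes carried a call in either direction. The median log2 fold change over all genes tested was -0.02. Of these calls, 914 were higher and 1381 lower by at least 1 on the log2 scale. Once the cell cycle and E2F genes, the TRP53 targets and the sex-linked genes were set aside, 15198 tested genes remained, with 3061 higher and 3194 lower. To read these by function, 45 lists with 2261 tested members in all were counted, and each share is read below against 21.8% for genes called higher and 20.8% for genes called lower. These shares depend on the scaling: of the same 15710 genes, library totals alone gave 1890 higher and 1832 lower. Upper-quartile scaling gave 2863 higher and 3864 lower. List counts given below for library totals alone are to be read against the 1890 and 1832.

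**Figure D1:**
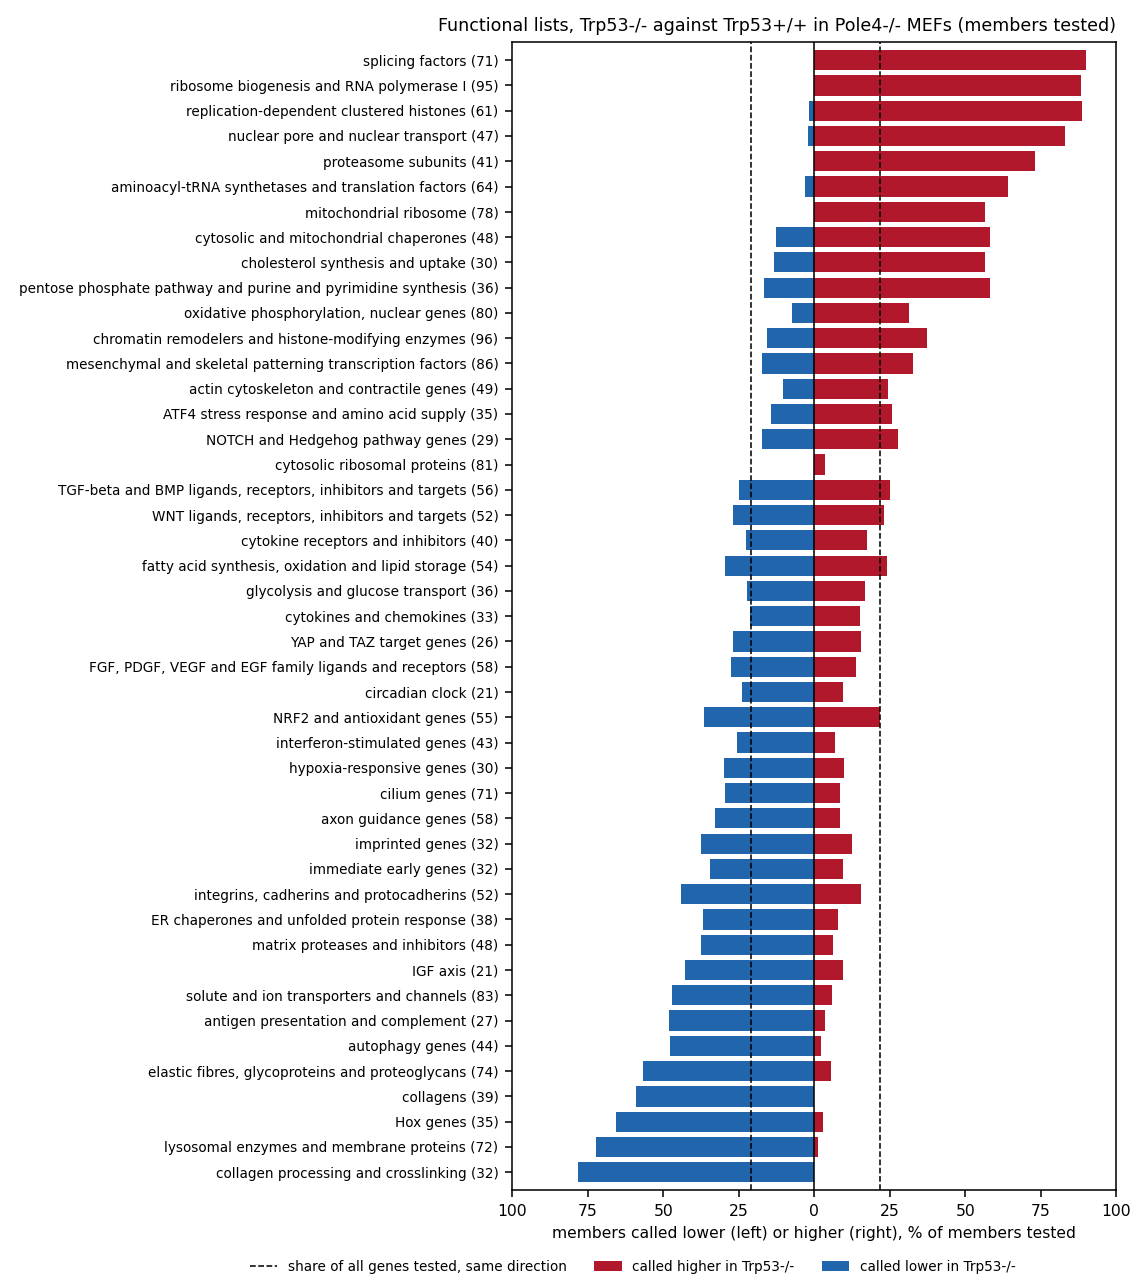
For each of the 45 functional lists, bars show the percent of tested members (number in brackets) called lower (left, blue) or higher (right, red) with loss of Trp53 in Pole4-/- MEFs, and dashed lines mark the 20.8% and 21.8% of all genes tested. Splicing factors, ribosome biogenesis and histones sit at the top with 64 of 71, 84 of 95 and 54 of 61 members higher, and collagen processing and lysosomal genes at the bottom with 25 of 32 and 52 of 72 members lower.

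The genes that make and mature RNA in the nucleus were higher in the Trp53-/- libraries. Of 95 tested genes of ribosome biogenesis and RNA polymerase I, 84 were higher (88.4%) and none was lower, with a median log2 fold change of 0.88. Ncl, which encodes nucleolin, the abundant nucleolar protein that acts on pre-ribosomal RNA, was at 1134, 1162 and 1517 CPM in the Trp53-/- libraries and 499, 531 and 516 CPM in the Trp53+/+ libraries (1.3 ± 0.24, adjusted p = 5.26e-04). The catalytic subunit of RNA polymerase I, Polr1a, was at 92.8, 91.2 and 112 CPM in the Trp53-/- libraries and 47.03, 50.5 and 44.97 CPM in the Trp53+/+ libraries (1.05 ± 0.17, adjusted p = 2.64e-04). Every Trp53-/- library lay above every Trp53+/+ library for both genes, and the groups were apart in the same way for 91 of the 95 members, where 28.5% of all genes were. The members with the lowest p were Taf1d, a subunit of the polymerase I selectivity factor, at 478, 470.0 and 508 CPM in the Trp53-/- libraries and 244, 225 and 229.6 CPM in the Trp53+/+ libraries (1.06 ± 0.15, adjusted p = 7.15e-05), Tcof1, the Treacher Collins syndrome nucleolar protein, with a log2 fold change of 1.16 ± 0.18, the RNA helicase Ddx27 with 1.17 ± 0.18 and the pseudouridine synthase Dkc1 with 1.72 ± 0.27. Fibrillarin, the methyltransferase of box C/D particles, and nucleophosmin, the nucleolar histone chaperone, were also higher (Fbl, 1.12 ± 0.20, and Npm1, 0.85 ± 0.21). Of 81 tested genes for the proteins of the cytosolic ribosome itself, 3 were called higher and none lower, and their median log2 fold change was 0.07. Myc, the transcription factor best known for driving ribosome synthesis, was on no list and was looked up after the values were seen. It was at 91.2, 89.5 and 110.1 CPM in the Trp53-/- libraries and 41.2, 36.3 and 36.4 CPM in the Trp53+/+ libraries (1.35 ± 0.26, adjusted p = 8.71e-04), with no overlap between the groups.

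Splicing factors had the largest share of members called higher, 64 of 71 (90.1%), with none lower and a median log2 fold change of 0.76. Snrnp200, the helicase that unwinds U4 from U6 during activation of the spliceosome, was at 187, 177 and 195 CPM in the Trp53-/- libraries and 112, 122 and 121 CPM in the Trp53+/+ libraries (0.66 ± 0.08, adjusted p = 2.53e-05). Srsf1, an SR protein that binds exonic enhancers, was at 382, 362 and 419 CPM in the Trp53-/- libraries and 185, 179 and 202 CPM in the Trp53+/+ libraries (1.04 ± 0.15, adjusted p = 7.44e-05). The hnRNP genes Hnrnpa2b1 and Hnrnpr, whose proteins package nascent transcripts, had log2 fold changes of 0.84 ± 0.12 and 0.70 ± 0.10. None of these 4 genes, which were chosen by lowest p, overlapped between the groups, where 28.5% of all genes were higher without overlap. Nuclear pore and nuclear transport genes followed, with 39 of 47 higher and 1 lower (median 0.65). Ndc1, a transmembrane anchor of the pore, was at 71.9, 75.7 and 91.6 CPM in the Trp53-/- libraries and 30.2, 28.7 and 33.5 CPM in the Trp53+/+ libraries (1.37 ± 0.16, adjusted p = 1.78e-05). The scaffold subunits Nup37 and Nup188 had log2 fold changes of 1.24 ± 0.15 and 0.85 ± 0.11, and the central channel subunit Nup54 0.97 ± 0.12. The exception was Tnpo2, an import receptor of the transportin family, at -0.28 ± 0.08 (adjusted p = 0.0102).

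The replication-dependent histone genes of the clusters, which are transcribed as DNA is copied, had the largest median of the 45 lists, with 54 of 61 higher, 1 lower and a log2 fold change of 1.81. Hist1h2bf was at 44.2, 42.2 and 49.7 CPM in the Trp53-/- libraries and 9.74, 9.93 and 11.6 CPM in the Trp53+/+ libraries (2.13 ± 0.25, adjusted p = 1.98e-05), and Hist2h2bb at 156, 127 and 132 CPM in the Trp53-/- libraries and 34.2, 30.05 and 29.2 CPM in the Trp53+/+ libraries (2.14 ± 0.28, adjusted p = 4.61e-05). Hist1h4k (2.07 ± 0.25) and Hist2h2ac (1.98 ± 0.26) shifted to a like extent. The member called lower, Hist1h2bq, was at 1.45, 2.20 and 2.06 CPM in the Trp53-/- libraries and 8.24, 4.76 and 10.8 CPM in the Trp53+/+ libraries (-2.06 ± 0.43, adjusted p = 0.00148). These genes are near-identical copies whose reads the authors' counting had to share out, so the value of a single member is less certain than that of the list. The cell cycle, replication and E2F genes, which were set aside here, held 355 of 382 higher and 5 lower. The labels give the RNA as polyA RNA, whereas transcripts of the clustered histone genes mostly end without a poly(A) tail, and the part of the RNA selection in their values was not tested.

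**Figure D2:**
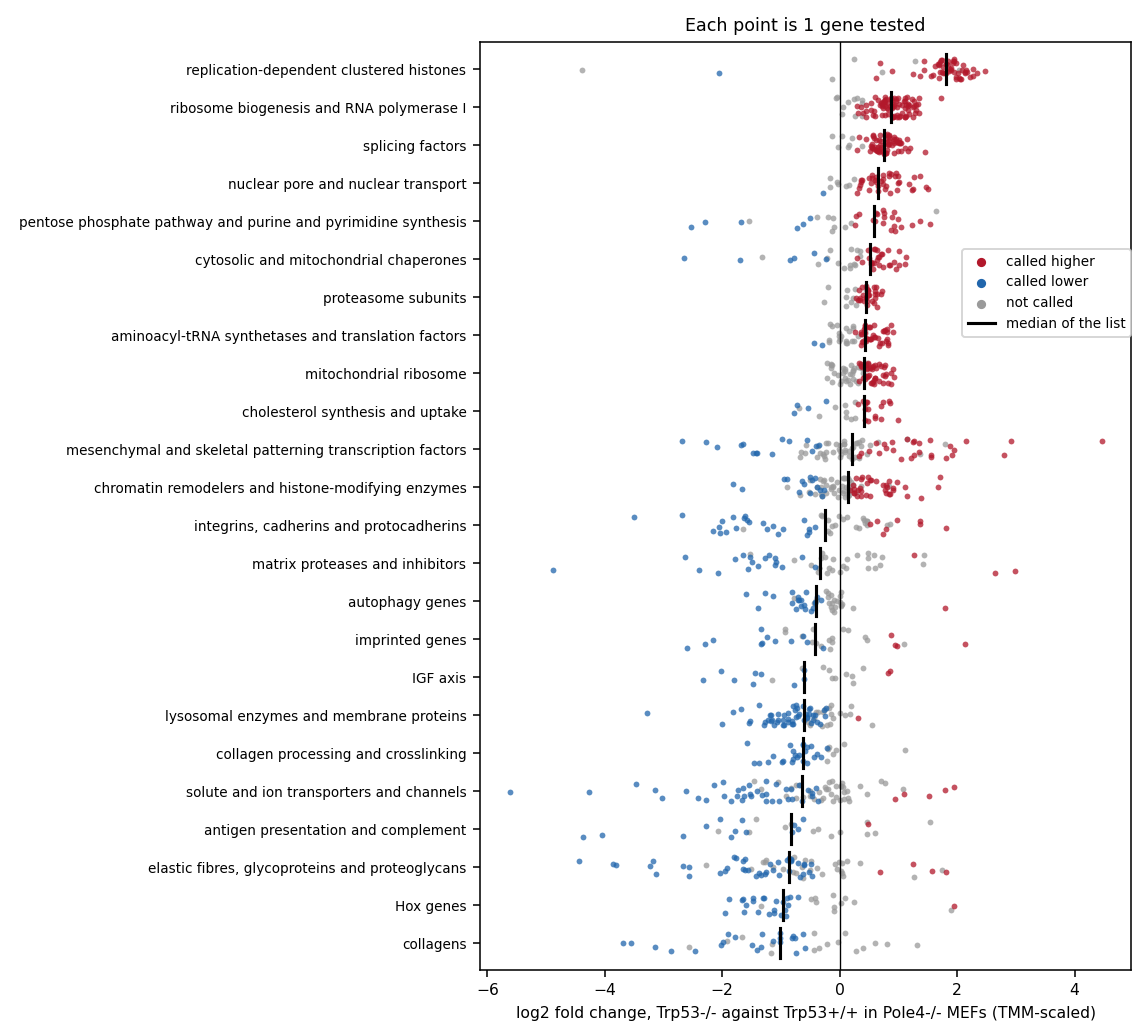
Each point is 1 tested gene of the 24 lists with the largest one-sided shares, placed on the x axis by its log2 fold change (Pole4-/- Trp53-/- against Trp53+/+) and coloured by its call, and the black bar is the median of the list. The medians run from 1.81 for the clustered histones and 0.88 for ribosome biogenesis down to -0.96 for Hox genes and -1.01 for collagens, and lists such as patterning factors hold members on both sides.

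Downstream of RNA processing, genes for translation factors, the mitochondrial ribosome and cytosolic and mitochondrial chaperones were mostly called higher, with smaller medians than ribosome biogenesis, and those for the cytosolic ribosome and the endoplasmic reticulum chaperones were not. Of 64 aminoacyl-tRNA synthetase and translation factor genes, 41 were higher and 2 lower (median 0.43). Eif4e, the protein that binds the mRNA cap, was at 119.9, 119 and 137 CPM in the Trp53-/- libraries and 66.1, 72.9 and 67.1 CPM in the Trp53+/+ libraries (0.87 ± 0.13, adjusted p = 1.10e-04), and the lysyl- and valyl-tRNA synthetases Kars and Vars had log2 fold changes of 0.79 ± 0.12 and 0.83 ± 0.16. Eif2b1, a subunit of the exchange factor that recycles eIF2, was higher by 0.72 ± 0.12. The elongation factor Eef2 and the helicase Eif4a2 were the members called lower, at -0.3 ± 0.09 and -0.43 ± 0.12. Each of these calls was lost in 2 of the 6 fits that leave out 1 library. In mitochondria, 44 of 78 ribosomal proteins were higher and none lower (median 0.42), with Mrps22 at 24.5, 19.7 and 22.1 CPM in the Trp53-/- libraries and 10.7, 12.4 and 12.6 CPM in the Trp53+/+ libraries (0.90 ± 0.15, adjusted p = 3.52e-04). Among the same list Mrps11, Mrpl49 and Mrps9 had log2 fold changes of 0.75 ± 0.13, 0.70 ± 0.12 and 0.47 ± 0.08. The nuclear genes of oxidative phosphorylation stood nearer to the background, with 25 of 80 higher and 6 lower (median 0.15).

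Proteasome and chaperone genes accompanied them. Proteasome subunits numbered 30 higher of 41 with none lower (median 0.45). Psmd1, the largest subunit of the regulatory particle, was at 189, 192 and 210.2 CPM in the Trp53-/- libraries and 128, 134 and 128 CPM in the Trp53+/+ libraries (0.60 ± 0.11, adjusted p = 4.59e-04), and the assembly chaperone Psmg1, the lid subunit Psmd3 and the core subunit Psma6 had log2 fold changes of 0.73 ± 0.13, 0.60 ± 0.11 and 0.64 ± 0.12. Cytosolic and mitochondrial chaperones were higher in 28 of 48 and lower in 6 (median 0.51). Members of the HSP90 system led the higher side. Hsp90aa1 was at 1403, 1223 and 1546 CPM in the Trp53-/- libraries and 659, 699 and 707 CPM in the Trp53+/+ libraries (1.01 ± 0.20, adjusted p = 0.00104), and its cochaperones Stip1, Fkbp4 and Ptges3 had log2 fold changes of 1.01 ± 0.16, 1.12 ± 0.18 and 0.97 ± 0.17. The mitochondrial chaperonin Hspd1 was higher by 1.11 ± 0.19. On the lower side stood small heat shock proteins that are abundant in muscle, Cryab at 25.2, 24.3 and 24.8 CPM in the Trp53-/- libraries and 67.4, 90.5 and 83.1 CPM in the Trp53+/+ libraries (-1.69 ± 0.17, adjusted p = 5.36e-06) and Hspb7 (-2.66 ± 0.48), with the cochaperone Dnajb5 (-0.78 ± 0.11) and the inducible Hspa1a (-0.85 ± 0.21). Scaling by library totals alone gave 11 of 41 proteasome, 20 of 64 translation and 20 of 78 mitochondrial ribosome genes higher, beside 1890 of all 15710 genes. The counts of these 3 lists thus depend on the scaling, as does the count of all genes.

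Among metabolic genes, most called members of nucleotide and sterol synthesis were higher. In the pentose phosphate, purine and pyrimidine list, 21 of 36 were higher and 6 lower (median 0.59). Ppat, which catalyses the committed step of de novo purine synthesis, was at 44.3, 43.7 and 56.6 CPM in the Trp53-/- libraries and 15.99, 15.9 and 17.9 CPM in the Trp53+/+ libraries (1.54 ± 0.23, adjusted p = 1.19e-04). Enzymes further along the same route followed, with log2 fold changes of 1.23 ± 0.18 for Pfas, 0.89 ± 0.14 for Adsl and 0.94 ± 0.14 for Gmps. Of the 6 members called lower, Dpyd degrades pyrimidines (-2.53 ± 0.52), Pgls and H6pd act in the pentose phosphate pathway (-0.73 ± 0.09 and -0.51 ± 0.11), and Prps2 supplies phosphoribosyl pyrophosphate, a substrate of purine synthesis (-0.63 ± 0.11). Cholesterol synthesis and uptake genes were higher in 17 of 30 and lower in 4 (median 0.41). Idi1, the isopentenyl diphosphate isomerase, was at 128, 115 and 102 CPM in the Trp53-/- libraries and 60.03, 64.8 and 65.9 CPM in the Trp53+/+ libraries (0.86 ± 0.14, adjusted p = 2.10e-04). Stard4, a sterol carrier, and Acat2, the cytosolic thiolase, had log2 fold changes of 0.85 ± 0.09 and 1.0 ± 0.13. Npc1 and Npc2, which export cholesterol from lysosomes, were lower (-0.72 ± 0.15 and -0.79 ± 0.12), as were Insig2 (-0.53 ± 0.13), which holds SREBP in the endoplasmic reticulum, and its partner Scap (-0.23 ± 0.08), whose call was lost in 5 of the 6 fits that leave out 1 library. Insig1, a relative of Insig2 with the same role, was called higher. It was at 80.9, 80.6 and 69.3 CPM in the Trp53-/- libraries and 49.8, 51.3 and 51.0 CPM in the Trp53+/+ libraries (0.60 ± 0.10, adjusted p = 2.54e-04). Without replicate 1 of the Trp53-/- group the count of cholesterol genes called higher was 11 of 30, beside 2938 of all 16096 genes tested in that fit. With library totals alone it was 5 of 30, beside 1890 of all 15710 genes.

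Of 54 tested genes of fatty acid metabolism, 13 were higher (24.1%, near the 21.8% of all genes) and 16 lower (29.6%), and with library totals alone 7 and 7. The members called higher included Fasn, the fatty acid synthase, at 449.7, 379 and 453 CPM in the Trp53-/- libraries and 234, 272 and 262 CPM in the Trp53+/+ libraries (0.74 ± 0.15, adjusted p = 0.00104), and log2 fold changes of 0.63 ± 0.07 for the carboxylase Acaca and 0.95 ± 0.11 for the elongase Elovl6. Those called lower included Cpt1a and Cpt2, which carry fatty acids into mitochondria (-1.31 ± 0.30 and -0.92 ± 0.18), the triglyceride lipase Pnpla2 (-0.50 ± 0.10) and the lipid droplet coat protein Plin4, at 0.544, 0.576 and 0.398 CPM in the Trp53-/- libraries and 5.84, 18.7 and 14.7 CPM in the Trp53+/+ libraries (-4.65 ± 0.81, adjusted p = 4.34e-04). The Plin4 level varied among the Trp53+/+ libraries, and each of them was above every Trp53-/- library.

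Promoter sequences are shown for 3 genes, each from a list with a large share of calls in 1 direction, so that the start site of a member described below can be read. Each gene was picked by lowest p from the called members whose window holds the motif, so its match was fixed by the choice. The windows run from 250 bases before to 50 bases after the annotated start (RefSeq, GRCm38.p6), and a match of letters is a description of the window, not a binding site. The E2F core (TTCCCGC or TTGGCGC on either strand) was in 24.2% of 62 splicing factor promoters and in 6.93% of all 27025 promoters in the table. The E-box CACGTG, which reads the same on both strands and was chosen after the values were seen, was in 18.8% of 80 ribosome biogenesis promoters and in 7.24% of all. Of the 10689 tested genes with a promoter in the table, which had a median GC content of 61.0% against 52.7% over all promoters, 12.3% held the E2F core and 10.1% the E-box. Capitals mark the E2F core in Hnrnpa2b1 (chr6:51469845-51470144, minus strand), the E-box in the ribosome biogenesis factor gene Wdr43 (chr17:71615965-71616264, plus strand) and both E-boxes in Ctsd, which encodes the lysosomal protease cathepsin D (chr7:142387778-142388077, minus strand).
Hnrnpa2b1: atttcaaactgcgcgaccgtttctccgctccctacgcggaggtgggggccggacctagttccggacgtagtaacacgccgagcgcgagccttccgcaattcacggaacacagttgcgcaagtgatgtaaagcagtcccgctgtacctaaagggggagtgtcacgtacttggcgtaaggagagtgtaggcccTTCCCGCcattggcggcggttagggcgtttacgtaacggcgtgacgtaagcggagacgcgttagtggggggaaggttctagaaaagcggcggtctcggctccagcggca
Wdr43: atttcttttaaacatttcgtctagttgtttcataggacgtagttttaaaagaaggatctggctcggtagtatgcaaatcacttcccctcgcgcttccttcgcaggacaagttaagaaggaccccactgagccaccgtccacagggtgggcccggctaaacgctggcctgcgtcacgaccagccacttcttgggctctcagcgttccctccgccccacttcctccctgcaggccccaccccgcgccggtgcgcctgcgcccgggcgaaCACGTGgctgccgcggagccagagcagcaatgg
Ctsd: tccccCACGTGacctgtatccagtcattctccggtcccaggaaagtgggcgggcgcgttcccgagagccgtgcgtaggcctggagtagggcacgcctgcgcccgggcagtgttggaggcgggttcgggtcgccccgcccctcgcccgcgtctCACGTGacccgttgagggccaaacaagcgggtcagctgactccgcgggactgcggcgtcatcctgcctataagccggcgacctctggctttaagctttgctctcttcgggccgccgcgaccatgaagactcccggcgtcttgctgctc
Wdr43 was at 143, 146 and 179 CPM in the Trp53-/- libraries and 65.04, 64.7 and 66.4 CPM in the Trp53+/+ libraries (1.25 ± 0.23, adjusted p = 5.97e-04), in the direction of its list. For lysosomal genes the table held promoters for 55 of 72 members, and no motif share is given for this list, so Ctsd does not describe it.

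On the lower side stood the extracellular matrix. Of 39 tested collagen genes 23 were lower (58.97%) and none higher, with a median log2 fold change of -1.01. The fibrillar collagens that make up most of the fibroblast's matrix were among them. Col1a1 was at 5140, 5163 and 3892 CPM in the Trp53-/- libraries and 9341, 7193 and 7365 CPM in the Trp53+/+ libraries (-0.75 ± 0.18, adjusted p = 0.00411). Col3a1 was at 617, 859 and 610.2 CPM in the Trp53-/- libraries and 2298, 1596 and 1607 CPM in the Trp53+/+ libraries (-1.40 ± 0.39, adjusted p = 0.00985), and Col1a2 and Col11a1 had log2 fold changes of -0.75 ± 0.21 and -1.91 ± 0.41. No library of these genes crossed between groups, and the Col1a2 call was lost in 2 of the 6 fits that leave out 1 library. Larger differences were found for the hypertrophic cartilage collagen Col10a1 (-3.55 ± 0.25), the fibril-associated Col14a1 (-3.15 ± 0.41) and the basement membrane Col18a1 (-2.02 ± 0.23), and Col8a1 was lower by a log2 fold change of -1.13 ± 0.16. Col6a1, a chain of the beaded collagen VI, did not pass the test (-0.44 ± 0.26, adjusted p = 0.187). The enzymes that modify and crosslink collagen were lower in 25 of 32 cases and higher in none (median -0.62), the largest one-sided share among the lower lists. Lox, the lysyl oxidase, was at 1247, 1289 and 1010 CPM in the Trp53-/- libraries and 3896, 3319 and 3339 CPM in the Trp53+/+ libraries (-1.57 ± 0.21, adjusted p = 5.45e-05). The lysyl hydroxylase Plod2 was at 137, 128 and 108 CPM in the Trp53-/- libraries and 288, 319 and 359 CPM in the Trp53+/+ libraries (-1.37 ± 0.17, adjusted p = 3.09e-05), and the procollagen C-proteinase Bmp1 and P3h4, a partner of the collagen hydroxylases, had log2 fold changes of -0.85 ± 0.14 and -0.62 ± 0.09. The collagen chaperone Serpinh1 was not called, at 1791, 1563 and 1263 CPM in the Trp53-/- libraries and 1516, 1391 and 1471 CPM in the Trp53+/+ libraries (0.08 ± 0.13, adjusted p = 0.663), and its groups overlapped. With library totals alone, 16 of 32 processing genes were lower, beside 1832 of all 15710 genes.

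Noncollagenous matrix genes had mostly lower calls, with 42 of 74 lower and 4 higher (median -0.86). Fibronectin, Fn1, was at 4077, 4224 and 3855 CPM in the Trp53-/- libraries and 10605, 8567 and 8479 CPM in the Trp53+/+ libraries (-1.19 ± 0.18, adjusted p = 1.27e-04). The collagen-binding glycoprotein Sparc was at 1553, 1546 and 1335 CPM in the Trp53-/- libraries and 2852, 2676 and 2505 CPM in the Trp53+/+ libraries (-0.86 ± 0.12, adjusted p = 7.01e-05), and elastin, Eln, at 38.4, 11.9 and 15.1 CPM in the Trp53-/- libraries and 190.4, 234 and 153 CPM in the Trp53+/+ libraries (-3.13 ± 0.49, adjusted p = 2.71e-04). All 3 were lower in every Trp53-/- library than in any Trp53+/+ library. The fibulin Fbln2 and Ccdc80 had log2 fold changes of -1.28 ± 0.18 and -1.62 ± 0.25. The exceptions included Emilin2 (1.57 ± 0.29), the integrin ligand Npnt (1.82 ± 0.50) and the hyaluronan synthase Has2, at 47.6, 51.9 and 88.8 CPM in the Trp53-/- libraries and 27.5, 23.5 and 28.4 CPM in the Trp53+/+ libraries (1.25 ± 0.37, adjusted p = 0.0147), which was not called without replicate 3 of the Trp53-/- or replicate 2 of the Trp53+/+ group. Matrix proteases and their inhibitors were lower in 18 of 48 and higher in 3, and the 3 higher calls, Mmp9, Mmp12 and Adamts20, were lost in 4, 5 and 5 of the 6 fits that leave out 1 library. Serpine2, a secreted inhibitor of thrombin and plasminogen activators, fell farthest, at 4.26, 4.29 and 5.24 CPM in the Trp53-/- libraries and 134, 152 and 118 CPM in the Trp53+/+ libraries (-4.88 ± 0.61, adjusted p = 5.14e-05). The gelatinase Mmp2 and the metalloprotease Adamts12 were lower by log2 fold changes of -1.50 ± 0.17 and -1.26 ± 0.14, and Adam15 by -1.09 ± 0.17. The gelatinase Mmp9 went the other way, at 4.49, 2.62 and 14.3 CPM in the Trp53-/- libraries and 1.12, 0.334 and 1.20 CPM in the Trp53+/+ libraries (2.98 ± 0.98, adjusted p = 0.0244), and the spread among its Trp53-/- libraries was wide. Of integrins, cadherins and protocadherins, 23 of 52 were lower and 8 higher. The collagen-binding integrins Itga1 and Itga11 were lower (-1.81 ± 0.26 and -2.05 ± 0.33), with the vitronectin receptor chain Itgb5 (-0.56 ± 0.09) and Pcdh1 (-2.0 ± 0.33), and the laminin receptor chain Itga6 and N-cadherin, Cdh2, were higher (1.37 ± 0.25 and 0.64 ± 0.16).

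Most lysosomal genes were lower, 52 of 72 (72.2%) with 1 higher and a median log2 fold change of -0.62. Ctsd, whose promoter is printed above, was at 199, 175 and 163 CPM in the Trp53-/- libraries and 641, 632 and 622 CPM in the Trp53+/+ libraries (-1.82 ± 0.21, adjusted p = 1.68e-05). Hexa, the hexosaminidase subunit that degrades gangliosides, was at 61.3, 56.7 and 57.1 CPM in the Trp53-/- libraries and 108, 118 and 117 CPM in the Trp53+/+ libraries (-0.97 ± 0.12, adjusted p = 2.14e-05). The groups were well apart for both. Further proteases of the list were lower by log2 fold changes of -3.28 ± 0.47 for Ctsf and -2.0 ± 0.26 for Ctsh. The abundant membrane protein Lamp1 was lower by less, at 463, 415 and 434 CPM in the Trp53-/- libraries and 557, 659 and 679 CPM in the Trp53+/+ libraries (-0.53 ± 0.13, adjusted p = 0.00332). Tfeb, a transcription factor of lysosomal genes, was not called (-0.22 ± 0.26, adjusted p = 0.536), and the member called higher was the metal transporter Slc11a2 (0.32 ± 0.12, adjusted p = 0.0357), a call lost in 5 of the 6 fits that leave out 1 library. Autophagy genes were lower in 21 of 44 and higher in 1 (median -0.40). Pink1, the kinase that marks damaged mitochondria, was at 6.49, 6.13 and 4.11 CPM in the Trp53-/- libraries and 16.9, 18.03 and 15.7 CPM in the Trp53+/+ libraries (-1.59 ± 0.22, adjusted p = 6.43e-05), and the ATG8 family member Gabarapl1, the ER-phagy receptor Tex264 and the tethering factor Tecpr1 had log2 fold changes of -0.58 ± 0.08, -0.61 ± 0.09 and -1.13 ± 0.19. Deptor, an inhibitor of mTOR, was the exception (1.79 ± 0.30). Of 55 NRF2 and antioxidant genes 20 were lower (36.4%) and 12 higher, the latter at the same 21.8% as all genes. The glutathione synthesis and recycling genes Gclm and Gsr were higher (0.77 ± 0.11 and 1.18 ± 0.20), and the glutathione-using Gstm2 and Gpx3 were lower (-2.10 ± 0.31 and -2.11 ± 0.32), as was the heme oxygenase Hmox1 (-0.65 ± 0.20), whose call was lost in 3 of the 6 fits that leave out 1 library.

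Antigen presentation and complement genes were lower in 13 of 27 and higher in 1 (median -0.83). The membrane regulators of complement Cd55 and Cd59a had log2 fold changes of -2.66 ± 0.44 and -1.78 ± 0.25. The class I light chain B2m was at 191, 175 and 178 CPM in the Trp53-/- libraries and 293, 275 and 326 CPM in the Trp53+/+ libraries (-0.72 ± 0.17, adjusted p = 0.00327) and the heavy chain H2-K1, which shares sequence with other class I genes, was lower by -0.78 ± 0.23. The H2-K1 call was lost in 2 of the 6 fits that leave out 1 library. The immunoproteasome subunit Psmb10 was the member called higher (0.48 ± 0.17), and it lost its call in 4 of the 6 fits that leave out 1 library. In the IGF axis, 9 of 21 were lower and 2 higher, and 5 were lower without replicate 1 of the Trp53-/- group or with library totals alone. The ligands differed: Igf1 was at 12.7, 14.2 and 14.9 CPM in the Trp53-/- libraries and 41.6, 33.6 and 40.96 CPM in the Trp53+/+ libraries (-1.48 ± 0.46, adjusted p = 0.0196, not called in 3 of the 6 fits that leave out 1 library), whereas Igf2, the main ligand of fetal tissue, was at 1950, 1321 and 2344 CPM in the Trp53-/- libraries and 1943, 1665 and 2511 CPM in the Trp53+/+ libraries (-0.12 ± 0.31, adjusted p = 0.785) with overlapping groups. The clearance receptor Igf2r was at 276, 187 and 233 CPM in the Trp53-/- libraries and 582, 614 and 568 CPM in the Trp53+/+ libraries (-1.34 ± 0.22, adjusted p = 2.82e-04), the signalling receptor Igf1r was not called (-0.08 ± 0.13), and Insr and the binding protein Igfbp2 were lower by log2 fold changes of -0.78 ± 0.15 and -1.80 ± 0.33. The adaptor Grb14 was lower (-2.02 ± 0.26) and the adaptor Irs2 higher (0.82 ± 0.18).

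WNT and TGF-beta pathway genes had calls on both sides, at shares near the 21.8% of all genes called higher and the 20.8% called lower. Of 52 WNT genes, 12 were higher (23.1%) and 14 lower (26.9%), and with library totals alone 6 and 9. The receptor Ryk, the ligand Wnt4, the inhibitor Apcdd1 and the nuclear effector Lef1 were higher, with log2 fold changes of 0.38 ± 0.08, 1.78 ± 0.39, 1.65 ± 0.38 and 2.77 ± 0.68. The R-spondins, which stabilise WNT receptors, were lower, Rspo2 at 17.1, 16.3 and 7.62 CPM in the Trp53-/- libraries and 116, 77.4 and 73.1 CPM in the Trp53+/+ libraries (-2.69 ± 0.55, adjusted p = 0.00173) and Rspo3 by -2.52 ± 0.51, along with the receptors Fzd8 (-1.10 ± 0.18) and Ror1 (-1.49 ± 0.32). In the TGF-beta and BMP list of 56, 14 were higher and 14 lower (25% each). The higher count was 7, 8 and 9 without replicates 1, 2 and 3 of the Trp53+/+ group, 9 without replicate 1 or 3 of the Trp53-/- group and 7 with library totals alone. Smad1, the pseudoreceptor Bambi, the BMP-responsive Id4 and the receptor Tgfbr1 were higher (0.62 ± 0.09, 1.12 ± 0.20, 1.91 ± 0.34 and 0.67 ± 0.12). The receptor Acvrl1 and its coreceptor Eng, a pair best known from endothelium, were lower (-1.74 ± 0.17 and -1.25 ± 0.14), as were the activin subunit Inhbb (-2.28 ± 0.27) and the BMP antagonist Nbl1 (-0.68 ± 0.10).

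Positional and patterning genes differed with the Trp53 genotype. Hox genes, which record position along the body axis in fibroblasts, were lower in 23 of 35 and higher in 1 (median -0.96). The difference followed the position within the clusters: of 21 tested genes of paralog groups 1 to 8, 20 were lower with a median of -1.31, and of 14 tested genes of groups 9 to 13, 3 were lower and 1 higher with a median of -0.10. Hoxb3 was at 6.31, 7.17 and 5.97 CPM in the Trp53-/- libraries and 26.5, 22.5 and 23.2 CPM in the Trp53+/+ libraries (-1.89 ± 0.24, adjusted p = 2.88e-05), and Hoxb4 and Hoxb2 had log2 fold changes of -1.64 ± 0.21 and -1.09 ± 0.14. The member called higher, Hoxc11, was at a low level, 0.817, 1.31 and 1.13 CPM in the Trp53-/- libraries and 0.487, 0.167 and 0 CPM in the Trp53+/+ libraries (1.94 ± 0.61, adjusted p = 0.0179), and was not called without replicate 2 of either group. In bulk RNA, fewer cells of one axial origin and less RNA per cell cannot be told apart, and this holds for every list here.

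**Figure D3:**
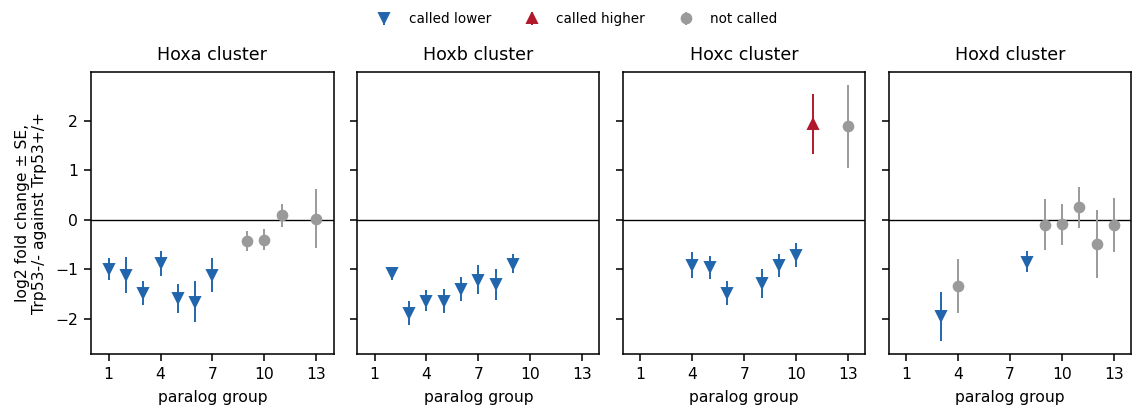
Log2 fold changes ± SE (Pole4-/- Trp53-/- against Trp53+/+) of the 35 tested Hox genes are plotted by paralog group in each of the 4 clusters. Groups 1 to 8 sit below 0 throughout with 20 of 21 called lower, and groups 9 to 13 have a median of -0.10, with Hoxb9, Hoxc9 and Hoxc10 called lower and Hoxc11 called higher.

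Mesenchymal and skeletal patterning factors were higher in 28 of 86 and lower in 15 (median 0.21). Msx1, a homeobox factor of facial and limb mesenchyme, was at 10.7, 10.1 and 12.8 CPM in the Trp53-/- libraries and 1.69, 3.84 and 2.14 CPM in the Trp53+/+ libraries (2.15 ± 0.26, adjusted p = 2.09e-05). Pax3, a factor of neural crest and muscle precursors, was at 25.2, 20.5 and 18.9 CPM in the Trp53-/- libraries and 6.40, 6.68 and 5.09 CPM in the Trp53+/+ libraries (1.81 ± 0.24, adjusted p = 3.89e-05), and the craniofacial factors Alx4 and Alx1 had log2 fold changes of 1.25 ± 0.18 and 1.35 ± 0.20. On the lower side were Ebf2 (-2.28 ± 0.26), the sclerotome factor Nkx3-2 (-2.68 ± 0.51) and the forkhead factors Foxc1 (-1.16 ± 0.20) and Foxp2, the latter at 5.17, 6.91 and 4.11 CPM in the Trp53-/- libraries and 19.3, 24.4 and 26.1 CPM in the Trp53+/+ libraries (-2.09 ± 0.24, adjusted p = 1.77e-05). Chromatin genes were higher in 36 of 96 and lower in 15 (median 0.14). The H3K9 methyltransferase Suv39h2 was at 16.8, 15.3 and 16.04 CPM in the Trp53-/- libraries and 5.62, 4.17 and 4.82 CPM in the Trp53+/+ libraries (1.71 ± 0.19, adjusted p = 1.31e-05), and the H3K36 methyltransferase Nsd2, the remodeler Chd7 and the demethylase Kdm2b had log2 fold changes of 1.38 ± 0.17, 1.67 ± 0.24 and 0.61 ± 0.09. The H3K27 demethylase Kdm6b and the Polycomb ubiquitin ligase Ring1 were lower (-0.42 ± 0.08 and -0.69 ± 0.15). With library totals alone 17 of 96 chromatin genes were higher, beside 1890 of all 15710 genes. Imprinted genes were lower in 12 of 32 and higher in 4. The maternally expressed noncoding RNAs Meg3 and Rian, neighbours on chromosome 12, were both lower, Meg3 at 81.7, 100.8 and 97.9 CPM in the Trp53-/- libraries and 512, 374 and 357 CPM in the Trp53+/+ libraries (-2.15 ± 0.51, adjusted p = 0.00414) and Rian by -1.11 ± 0.22. The paternally expressed Nnat was higher, at 42.4, 25.2 and 35.1 CPM in the Trp53-/- libraries and 6.52, 7.68 and 9.64 CPM in the Trp53+/+ libraries (2.14 ± 0.26, adjusted p = 2.56e-05), and H19, at 3213, 2527 and 2220 CPM in the Trp53-/- libraries and 4606, 3489 and 4310 CPM in the Trp53+/+ libraries with no overlap, did not pass the test in the fit of 18 libraries (-0.64 ± 0.38, adjusted p = 0.189) and passed it in a fit of the 6 libraries compared (-0.65, adjusted p = 0.00675).

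Transporters and ion channels were lower in 39 of 83 and higher in 5 (median -0.64). The glutamate receptor subunit Gria3 was at 21.9, 21.5 and 23.1 CPM in the Trp53-/- libraries and 87.5, 101.5 and 103 CPM in the Trp53+/+ libraries (-2.13 ± 0.21, adjusted p = 4.71e-06). The sodium channel beta subunit Scn3b and the calcium channel subunit Cacna2d1 had log2 fold changes of -4.27 ± 0.41 and -0.83 ± 0.12. The connexin Gjc1 and the potassium channel Kcnk5 were higher (1.09 ± 0.13 and 1.95 ± 0.35).

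Outside the cell cycle, TRP53 target and sex-linked lists, several of the genes with the lowest and highest log2 fold changes were close to off in 1 group. Cd80, the costimulatory ligand of T cells, encoded at chr16:38455561-38496335 (GRCm38), was at 0.181, 0.209 and 0.265 CPM in the Trp53-/- libraries and 21.1, 18.4 and 19.01 CPM in the Trp53+/+ libraries (-6.47 ± 0.39, adjusted p = 4.21e-08), a difference of 88.8-fold. Wdr72 and Hp, the gene of the plasma protein haptoglobin, had no count in any Trp53-/- library and 1.01, 1.25 and 2.14 and 1.65, 0.501 and 1.20 CPM in the Trp53+/+ libraries, which makes them at least 8.95-fold and 6.81-fold lower against 3 counts per library, and the Hp call was lost in 5 of the 6 fits that leave out 1 library. Klhdc7a had 1 count over the Trp53-/- libraries and 281 over the others, a pooled ratio of 342 (95% interval 60.9 to 13568) from counting error only. On the same footing the ratio was 163 (95% interval 28.8 to 6495) for Cys1, a protein of the primary cilium, and 133 (95% interval 23.3 to 5292) for Agt, which encodes angiotensinogen. The lowest 12 also included the potassium channel Kcna5, the protease St14, the aldehyde dehydrogenase Aldh1a7, the prohormone convertase Pcsk2 and the lectin Chodl.

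Among the 12 highest, Lepr, the leptin receptor, was at 15.5, 35.2 and 28.05 CPM in the Trp53-/- libraries and 1.80, 2.59 and 4.82 CPM in the Trp53+/+ libraries (3.21 ± 0.41, adjusted p = 4.20e-05), and the LIM homeobox factor Lhx8 at 7.26, 5.24 and 8.75 CPM in the Trp53-/- libraries and 0.637, 0.835 and 0.937 CPM in the Trp53+/+ libraries (3.19 ± 0.31, adjusted p = 4.48e-06). Podxl, a sialomucin of podocytes and mesothelium, was at 5.04, 3.25 and 7.03 CPM in the Trp53-/- libraries and 0.374, 0.751 and 0.535 CPM in the Trp53+/+ libraries (3.24 ± 0.54, adjusted p = 2.74e-04). U90926 was the highest, at 2.27, 7.38 and 18.6 CPM in the Trp53-/- libraries and 0.112, 0.334 and 0.402 CPM in the Trp53+/+ libraries, and its Trp53-/- libraries differed widely among themselves. Wt1, a transcription factor of mesothelium and kidney, was at 3.13, 1.73 and 5.17 CPM in the Trp53-/- libraries and 0.449, 0 and 0.402 CPM in the Trp53+/+ libraries (3.45 ± 0.72). Keratin 8 and Gata4 had pooled ratios of 24.3 (95% interval 10.2 to 75.9) and 24.4 (95% interval 8.07 to 120.3). The chemokine Cxcl10 (13.8 (95% interval 5.68 to 43.6)), Kcnip1, Lrrn4, Kcnk10 and the citrate transporter Slc13a5 completed the group.

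**Figure D4:**
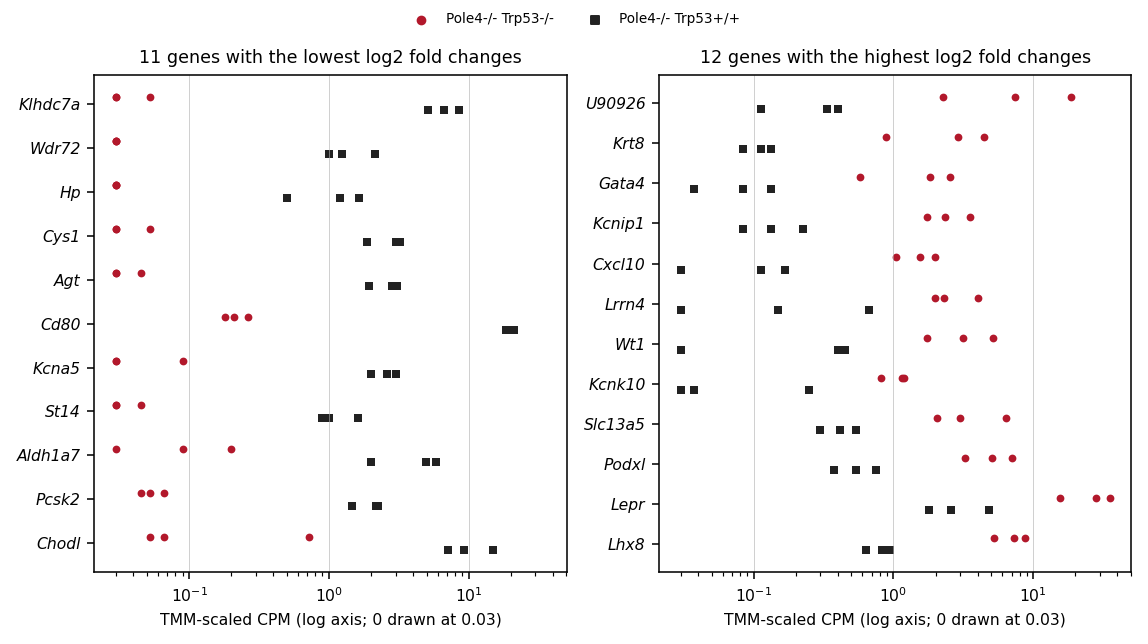
TMM-scaled CPM (log axis, with 0 drawn at 0.03) of 11 of the 12 genes with the lowest and the 12 with the highest log2 fold change outside the cell cycle, TRP53 target and sex-linked lists, 1 point per library. No gene overlaps between the groups by the rule that chose them, and Cd80 falls from 18.4 to 21.1 CPM in the Trp53+/+ libraries to 0.181 to 0.265 CPM in the Trp53-/- libraries.

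Markers of other cell types that MEF cultures can hold moved beside some of these results. Of 9 tested mesothelial markers 7 were higher, among them Wt1, Krt8 and Lrrn4 of the 12 highest genes, with a median log2 fold change of 2.36. Their summed level was 33.1 to 69.9 CPM in the Trp53-/- and 15.2 to 23.02 CPM in the Trp53+/+ libraries, and the defining marker Msln did not pass the test (-0.04 ± 0.75, adjusted p = 0.977). Chondrocyte markers summed to 142 to 374 CPM against 400 to 713 CPM, with 5 of 10 lower, and all 5 (Col2a1, Col9a2, Col11a2, Comp and Hapln1) are matrix genes counted above. Col2a1 made up most of the sum, at 172, 302 and 92.2 CPM in the Trp53-/- libraries and 349, 655 and 584 CPM in the Trp53+/+ libraries, and its call was lost without replicate 3 of the Trp53-/- group. The defining markers Acan and Sox9 did not pass the test (1.26 ± 0.55 and 0.27 ± 0.16, adjusted p = 0.0824 and 0.190), and both were higher in every Trp53-/- library than in any Trp53+/+ library. Skeletal muscle markers summed to 71.5 to 92.1 CPM against 149 to 164 CPM, with 2 of 15 lower and 1 higher. The 2 lower members made up most of that sum, Acta1 (mean 35.6 CPM in the Trp53-/- and 84.6 CPM in the Trp53+/+ libraries) and Des (21.6 and 56.7 CPM). Chrna1 was the member called higher (2.29 ± 0.48), and Pax7 and Myod1 did not pass the test (1.19 ± 0.52 and 2.03 ± 0.98). None of 14 tested macrophage markers was called, and their sums overlapped at 9.21 to 48.2 CPM and 12.3 to 36.1 CPM. Fibroblast markers, which the label calls for, were abundant in all 6 libraries, with sums of 11068 to 13481 CPM in the Trp53-/- and 17389 to 22429 CPM in the Trp53+/+ libraries. Col1a1, Col1a2, Col3a1 and Vim made up most of these sums, and the difference between the groups was largely that of the collagens given above. Of 14 tested fibroblast markers 2 were higher, Pdgfra (1.49 ± 0.49) and Prrx1 (0.66 ± 0.11), and 4 were lower, Pdgfrb (-0.43 ± 0.14), Col1a1, Col1a2 and Col3a1 (the Pdgfra and Pdgfrb calls were each lost in 4 of the 6 fits that leave out 1 library), while Vim was not called (-0.01 ± 0.14). What part these shares of cells had in the matrix, Hox or extreme-gene results was not tested.

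**Figure D5:**
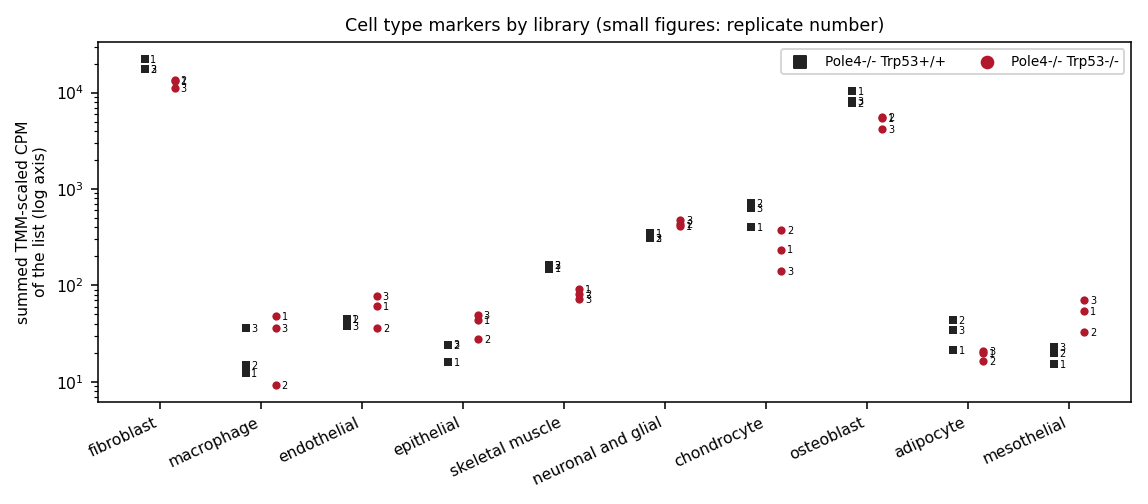
Summed TMM-scaled CPM (log axis) of each cell type marker list, 1 point per library with its replicate number. Mesothelial sums are 33.1 to 69.9 CPM in the Trp53-/- and 15.2 to 23.02 CPM in the Trp53+/+ libraries, chondrocyte sums are higher in the Trp53+/+ libraries at 400 to 713 CPM, and macrophage sums overlap.

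The same contrast in Pole4+/+ MEFs, which shares no library with this one, was used to ask where the Pole4-/- difference departed from it. One of its libraries, labelled Pole4+/+ Trp53-/- replicate 1, stood apart before any test: its Pole4 level was 14.2 CPM against 25.4 and 26.4 CPM in the other replicates and 16.3 to 22.9 CPM in the Pole4+/+ Trp53+/+ libraries, and it held both Y-linked transcripts (9.08 CPM) and Xist (1081 CPM). In Pole4+/+ cells 4.6% of genes carried a call, and 351 (2.23%) were called higher and 372 (2.37%) lower. The median standard error was 0.187 on the log2 scale against 0.191 in Pole4-/- cells. Both rest on the spread estimated over all 18 libraries, so they do not compare the spread within each contrast. List medians there were 0.24 for splicing factors, 0.18 for ribosome biogenesis, 0.77 for clustered histones, -0.18 for lysosomal genes, -0.17 for collagen processing and -0.38 for Hox genes, each nearer to 0 than in Pole4-/- cells and of the same sign. Collagens had a median of 0.37 and noncollagenous matrix genes 0.18, opposite in sign to their Pole4-/- medians. The Pole4+/+ Trp53-/- libraries spread widely for some matrix genes, such as Col3a1 (mean 1187, standard deviation 733 CPM) and Comp (3.06 and 4.07 CPM). The spread was narrower for Col1a1 (6075 and 1038 CPM). What part single libraries had in these medians was not tested. Cd80 was lower by -6.04 ± 0.41 in Pole4+/+ cells as well, and Col3a1, at 0.64 ± 0.38 (adjusted p = 0.407), was not called there.

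A test of the difference itself, the interaction of both genotypes, called 52 of 15710 genes (0.331%), 28 with a higher and 24 with a lower Trp53-/- effect in Pole4-/- cells. Leaving out the library that stood apart gave 170, leaving out replicate 2 or 3 of that group gave 1973 or 3242, and leaving out any of the Pole4-/- libraries gave 0 to 11. Leaving out a Pole4+/+ Trp53+/+ library gave 0 for replicates 1 and 2 and 408 for replicate 3. None was called at an adjusted p under 0.01 or with sex as a covariate, and DESeq2 called 1791. At an unadjusted p under 0.05 there were 4453, and the smallest adjusted p was 0.0313. Foxp2 was called, at -0.24 ± 0.23 in Pole4+/+ against -2.09 ± 0.24 in Pole4-/- cells (interaction -1.86 ± 0.33, adjusted p = 0.0362), and so was Pgls, at -0.02 ± 0.09 against -0.73 ± 0.09 (interaction -0.70 ± 0.13, adjusted p = 0.0372). Of the 203 genes selected by label check, fold change or lowest p, the other 201 did not pass it, among them Ctsd (-1.0 ± 0.29, adjusted p = 0.0654). Ncl (1.02 ± 0.33, adjusted p = 0.0791) and Col3a1 (-2.04 ± 0.55, adjusted p = 0.0616), described for their roles, did not pass it either. Larger changes in Pole4-/- than in Pole4+/+ cells were therefore not shown for those genes one by one.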

How the data were processed

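RNA-seq of 18 MEF libraries, 3 for each of 6 genotypes, was analysed from 1 gene table. The authors trimmed reads, aligned them to GRCm38 with STAR 2.5.2 and deposited RSEM 1.3.0 expected counts (both versions per the labels), which split shared reads, so that values of near-identical genes are uncertain. The 6.14% of deposited expected counts that were not whole were rounded. Groups were taken from the labels. All 18 libraries entered 1 edgeR 4.0.16 quasi-likelihood fit (R 4.3.3, limma 3.58.1) with a mean per genotype, TMM scaling and edgeR's filter on low counts, and a gene was called at an adjusted p under 0.05. The authors used DESeq2, which was run here as an alternative (1.42.0). Depth was 11316150 to 25497457 counts in the 6 libraries compared, and intervals from counts cover counting error only. Symbols came from a GENCODE annotation matched by identifier for 51719 of 51912 genes.

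The members and gene lists were chosen with earlier results of these data known. Genes on the cell cycle and E2F, TRP53 target and sex-linked lists were left out of the functional lists. Genes named were Trp53, Pole4 and Cdkn1a, the 12 lowest and 12 highest called protein-coding genes outside those lists with nonoverlapping groups and a mean of at least 1 CPM in a group, and, in the 12 lists with the largest share in each direction and the split lists, up to 4 called members per direction with the lowest p (203 genes in all), plus pathway-defining members and markers given as values. Alternatives covered scaling, filters, ribosomal RNA genes, covariates, thresholds, other tools and leaving out each library. The fit was tested on simulated counts. Some genes that this rule selects are not reported here.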

Additional observations from a re-analysis of the deposited data

Results flagged for a closer look

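Of the genes named by the selection rule, 2 had a Trp53-/- effect that differed between Pole4-/- and Pole4+/+ cells by the interaction test. Foxp2, a forkhead transcription factor, had an effect of -2.09 ± 0.24 in Pole4-/- and -0.24 ± 0.23 in Pole4+/+ cells on the log2 scale, a difference of -1.86 ± 0.33 (edgeR, adjusted p = 0.0362). Its level was lower in all 3 Pole4-/- Trp53-/- libraries than in any Pole4-/- Trp53+/+ library. Pgls, the 6-phosphogluconolactonase of the pentose phosphate pathway, had effects of -0.73 ± 0.09 and -0.02 ± 0.09, a difference of -0.70 ± 0.13 (edgeR, adjusted p = 0.0372). Both rest on a fit that includes the library labelled Pole4+/+ Trp53-/- replicate 1, whose Pole4 level of 14.2 CPM was below the 25.4 and 26.4 CPM of the other replicates and the 16.3 to 22.9 CPM of the Pole4+/+ Trp53+/+ libraries. The part of that library in these differences was tested only through the count of genes called, which was 170 without it and 52 with it. Both calls were lost, since no gene was called, with library totals alone, with sex as a covariate, at an adjusted p under 0.01, and without replicate 1 or 3 of the Pole4-/- Trp53-/- group, replicate 2 or 3 of the Pole4-/- Trp53+/+ group or replicate 1 or 2 of the Pole4+/+ Trp53+/+ group.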

How the results depend on the processing

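None of the 203 genes selected by label check, fold change or lowest p changed direction under any alternative run, and 15 of the 202 called lost their call when 1 of the 6 libraries was left out, among them Stc2, Slc11a2, Scap, Mmp9, Mmp12, Adamts20, Hp, Psmb10, Hoxc11, Has2, Eif4a2, Eef2, U90926 and Hspa1a. Of 56 further genes given for their roles or as markers, not counting Insig1 and the skeletal muscle genes named, 45 were called, none of these 45 changed direction, and 13 lost their call without a library, namely Col11a2, Col1a2, Col2a1, Fos, H2-K1, Hapln1, Hmox1, Hoxc9, Hoxc10, Igf1, Krt18, Pdgfra and Pdgfrb. Over both sets, calls were also lost for 29 genes with library totals alone, 12 without the low-count filter, 9 with sex as a covariate, 4 with upper-quartile scaling, 3 with only the 6 libraries compared, 2 with the replicate block, 1 each with voom and a mean count of at least 50, 25 at an adjusted p under 0.01 and 91 at a log2 fold change of at least 1. H19 and Acan were called with only the 6 libraries compared, and Col6a1, Acan and Sox9 with voom. Among those not called, values near 0 changed sign: Hspa5 to -0.031 with library totals, -0.082 with upper-quartile scaling, -0.0054 without ribosomal RNA genes and -0.038 at a mean count of at least 50, Serpinh1 to -0.018 with upper-quartile scaling, Msln to 0.0043 and Vim to 0.039 without the low-count filter, and Vim to 0.046 with sex as a covariate. With each library left out Hspa5 ran from -0.11 to 0.14, Igf2 from -0.31 to 0.076, Msln from -0.82 to 0.30, Serpinh1 from -0.044 to 0.20 and Vim from -0.046 to 0.041. The numbers of genes called higher and lower ran from 2758 to 3197 and from 2350 to 2810 over these 6 fits, and the shares of all 24 one-sided lists stayed above those of all genes. Without replicate 1 of the Pole4-/- Trp53-/- group 11 cholesterol genes were higher (16 at most over the fits) and 5 IGF genes lower (8 at most), and the TGF-beta genes called higher ran from 7 to 13 against 14 with all libraries. Library totals alone gave 1890 higher and 1832 lower genes, with 11 proteasome, 20 translation, 20 mitochondrial ribosome, 5 cholesterol and 17 chromatin genes higher and 16 collagen processing and 5 IGF genes lower. Upper-quartile scaling moved the median of all genes to -0.11 and gave 2863 higher and 3864 lower. At an adjusted p under 0.01, 2012 genes were lower, with 10 cholesterol genes higher and 27 matrix, 25 transporter and 5 IGF genes lower. A log2 fold change of at least 1 left 914 higher and 1381 lower genes, with 11 splicing, 31 ribosome biogenesis, 8 nuclear pore, 4 nucleotide, 4 chaperone, 5 chromatin and 0 proteasome, translation, cholesterol or mitochondrial ribosome genes higher, and 5 collagen processing, 18 lysosomal and 4 autophagy genes lower. This follows from the size of the changes, since the medians of those lists were under 1. The interaction count of 52 went to 0 with library totals, with sex as a covariate or at an adjusted p under 0.01, to 308 with upper-quartile scaling, to 1791 with DESeq2, and to between 0 and 3242 when a library was left out. The cause was not tested. The labels' numbers did not meet the standard for pairing, as deviations of same-numbered libraries correlated at 0.074, 0.154 and 0.219 where each had to exceed 0.1, although each library correlated best with its own number. With the replicate block 3500 genes were higher and 3393 lower, and the interaction count was 548. The depth of 11316150 counts in the smallest library limits genes under about 1 CPM, for which ratios carry wide intervals.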

Other observations

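Several lists outside the 24 with the largest one-sided shares are given by their counts, and the members named below were chosen after their values were seen. ER chaperone and unfolded protein response genes were lower in 14 of 38 and higher in 3, with a median log2 fold change of -0.16. The ubiquitin ligase Syvn1 (-0.77 ± 0.13) and its partner Sel1l (-0.64 ± 0.11) were among the lower, while the main ER chaperone Hspa5 was not called, at 853, 739 and 595 CPM in the Trp53-/- libraries and 773, 714 and 681 CPM in the Trp53+/+ libraries (0.01 ± 0.13, adjusted p = 0.953 by edgeR). Cilium genes were lower in 21 of 71 and higher in 6, and axon guidance genes were lower in 19 of 58 and higher in 5. In the former, the transition zone gene Tctn1 was at 4.81, 4.50 and 4.97 CPM in the Trp53-/- libraries and 10.2, 11.6 and 11.1 CPM in the Trp53+/+ libraries (-1.20 ± 0.23). In the latter, the ephrin receptor Epha4 had a log2 fold change of -1.43 ± 0.21 and the semaphorin Sema3f -1.49 ± 0.32.

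Interferon-stimulated genes were lower in 11 of 43 and higher in 3, close to the 20.8% of all genes called lower, and immediate early genes were lower in 11 of 32 and higher in 3. Lgals3bp, a secreted glycoprotein, was at 2.31, 3.77 and 1.86 CPM in the Trp53-/- libraries and 27.04, 21.9 and 24.8 CPM in the Trp53+/+ libraries (-3.20 ± 0.50). Fos was at 22.2, 10.9 and 11.3 CPM in the Trp53-/- libraries and 157, 24.96 and 73.9 CPM in the Trp53+/+ libraries (-2.53 ± 0.67), a call lost without replicate 1 of the Trp53+/+ group, and the related Fosl1 was higher, at 29.1, 28.5 and 37.5 CPM in the Trp53-/- libraries and 10.3, 7.85 and 9.90 CPM in the Trp53+/+ libraries (1.76 ± 0.40). Hypoxia-responsive genes were lower in 9 of 30 and higher in 3, in cultures all kept at 5% oxygen, and the glycolytic list was lower in 8 of 36 and higher in 6. Cytokines and chemokines were lower in 7 of 33 and higher in 5, which like the glycolytic counts are near or below the shares of all genes (20.8% lower and 21.8% higher), with Ccl5 higher (3.73 ± 0.74) beside Cxcl10, and Cxcl14 lower (-1.37 ± 0.29). Growth factor ligands and receptors of the FGF, PDGF, VEGF and EGF families were lower in 16 of 58 and higher in 8, with the ligand Fgf10 lower (-3.17 ± 0.64) and the receptor Met higher (1.52 ± 0.18).

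Actin and contractile genes were higher in 12 of 49 and lower in 5, YAP and TAZ targets higher in 4 of 26 and lower in 7, NOTCH and Hedgehog genes higher in 8 of 29 and lower in 5, cytokine receptors higher in 7 of 40 and lower in 9, ATF4 response genes higher in 9 of 35 and lower in 5, and clock genes higher in 2 of 21 and lower in 5. The shares higher among these lists are close to or below the 21.8% of all genes, apart from NOTCH and Hedgehog at 27.6% and ATF4 at 25.7%. Neuronal and glial markers summed to 416 to 476 CPM in the Trp53-/- and 311 to 348 CPM in the Trp53+/+ libraries, with 4 of 12 higher and 2 lower. Of 4 tested epithelial markers 2 were higher and none lower, and both, Krt8 and Krt18, were also counted among the mesothelial markers. Osteoblast markers were higher in 2 of 7 and lower in 2, adipocyte markers were lower in 2 of 5, and 1 of 6 endothelial markers was lower. No erythroid marker passed the filter on low counts, as 8 of 11 were at 0 in all 6 libraries and the 11 summed to at most 0.25 CPM in any.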
